A study of Mus musculus with 88 samples.

Results

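Dendritic cells that had been exposed to lipopolysaccharide for 9 or 12 h were compared with mock-stimulated cells of the same times, to separate proteins that differed through protein made after the stimulus, through loss of protein already present, or through both. The comparison took in the 16 of 88 samples labelled LPS or mock at 9 or 12 h. These are the M and H channels of 8 of the 42 trypsin runs, 4 LPS against 4 mock, with 2 replicates of each treatment and time. The cells were cultured from bone marrow with GM-CSF, taken from female mice of strain C57BL/6J, and stimulated on day 9. LPS groups received 100 ng per ml of rough, ultrapure LPS of Escherichia coli K12, and mock groups received no stimulus. All groups carried the same labels, since cells grown in medium-heavy arginine and lysine (M) were pooled and moved to heavy arginine and lysine (H) at 0 h, just before the stimulus. Unlabelled dendritic cells (L), grown in parallel, gave a common reference. Age of the mice is not given, and the labels do not tell whether the replicates are separate cultures. The p-values thus reflect the spread among these samples only, which could be technical.

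LPS is sensed by Toll-like receptor 4 with its co-receptor Cd14. The receptor signals through Myd88 to NF-kB, which induces cytokines and maturation proteins, and through a later branch that raises type I interferon and with it the interferon-stimulated proteins. In dendritic cells the response also lowers macrophage-type receptors, reshapes endosomes and lysosomes and changes metabolism. A protein's level can rise because more of it is made or because less of it is lost. A pulse of heavy amino acids separates the terms, because molecules made before the switch keep the M label and molecules made after it take the H label. H/L is here called new protein, M/L old protein and their sum total protein. M/L counts every M-labelled molecule whatever its time of synthesis, and H/L and M/L share the L signal as denominator, while H/M does not use it.

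A run gave M/L for 3661 to 3888 proteins from 79621 to 86484 peptide pairs (median 8 to 9 for each protein) and H/L for 3570 to 3837 proteins. All runs were put on 1 scale by a run factor, taken from 2628 proteins quantified in every run as the median of their summed M/L and H/L. LPS at 12 h, replicate 2, stood apart, with a log2 factor of 0.69 against -0.05 to 0.05 in the other replicate 2 runs and -0.53 to -0.46 in replicate 1, and counts without it follow beside the main counts. The median share of H in M plus H was 17.9% to 23.7% over the 8 runs. At 0 h, where H had not been supplied, the median H/L was 0.147, against 0.217 in mock at 9 and 12 h, so low H/L values lie near the background of the heavy channel. Of 4696 proteins seen in these runs, those with values in at least 3 of 4 runs of each arm were tested with limma, and a change was called at a Benjamini-Hochberg adjusted p under 0.05. Changes are log2 LPS minus mock with the standard error (SE), and the values of an arm are ordered 9 h replicate 1, 9 h replicate 2, 12 h replicate 1, 12 h replicate 2.

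Relative to mock, new protein was higher with LPS far more often than lower, and old protein was lower more often than higher. H/L was higher with LPS for 329 and lower for 60 of 3221 proteins (12.1% called, 10.2% higher and 1.86% lower), of which 200 and 19 differed by at least 2-fold. M/L was higher for 114 and lower for 464 of 3320 proteins (17.4% called, 3.43% higher and 14% lower), of which 3 and 22 differed by at least 2-fold. H/M was higher for 352 and lower for 32 of 3220 (11.9% called, 10.9% higher and 0.994% lower). Total protein was higher for 336 and lower for 297 of 3221 (19.7% called, 10.4% higher and 9.22% lower). Without LPS 12 h replicate 2 the counts were 272 higher and 38 lower for H/L, 62 and 406 for M/L, 302 and 12 for H/M, and 275 and 245 for total.

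The M/L changes were small and precise (median SE 0.09) and the H/L changes large and noisy (median SE 0.33), so a missing H/L call is weaker evidence than a missing M/L call. Across proteins the H/L and M/L changes had a Pearson r of 0.14 (n = 3221), a description over proteins that share runs and denominators. The share of higher among called changes depended on the scale. It was 84.6% for H/L, 76.0% with each column centred on its median, 97.5% with no run factor and 39.3% in the deposited normalised ratios, and for M/L 19.7%, 36.6%, 22.2% and 45.5% in the same order. The M/L share with no run factor rests on only 9 called proteins, 2 of them higher, against 578 called with the factor. For H/M it was 91.7% and 46.4% in the normalised ratios, and for total protein 53.1%, 93.4% with no factor and 36.5% in the normalised ratios. With no run factor the median of all proteins moved to 0.27 for H/L, 0.20 for M/L and 0.23 for total, and in the normalised ratios to -0.45 for H/L and -0.24 for total. Directions below are relative to the run factor.

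Of 3220 proteins tested in H/L, M/L and H/M, 380 could be placed. New protein alone was higher for 234 and lower for 13, called in H/L but not in M/L with H/M moving the same way. Old protein alone was lower for 34 and higher for 2, called in M/L but not in H/L with H/M moving the opposite way. Both were higher for 28 and lower for 35, and 32 had more new and less old protein. The remaining 2, Hmha1 and Sept9, had less new and more old protein, but the H/L call of Hmha1 was lost when any single run was left out (adjusted p 0.0626 to 0.0900) and that of Sept9 without LPS 9 h replicate 2 (adjusted p = 0.0938). The M/L call of Sept9 was lost without LPS 12 h replicate 2 (adjusted p = 0.117), LPS 9 h replicate 1 (0.0947) or mock 12 h replicate 1 (0.0575), and its H/M call without LPS 12 h replicate 2 (0.0561) or LPS 9 h replicate 2 (0.0783). A further 356 with lower and 81 with higher M/L, and 35 with higher and 10 with lower H/L, could not be placed because H/M did not pass. The other 2358 passed in neither. Without LPS 12 h replicate 2, 298 proteins were placed.

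**Figure D1:**
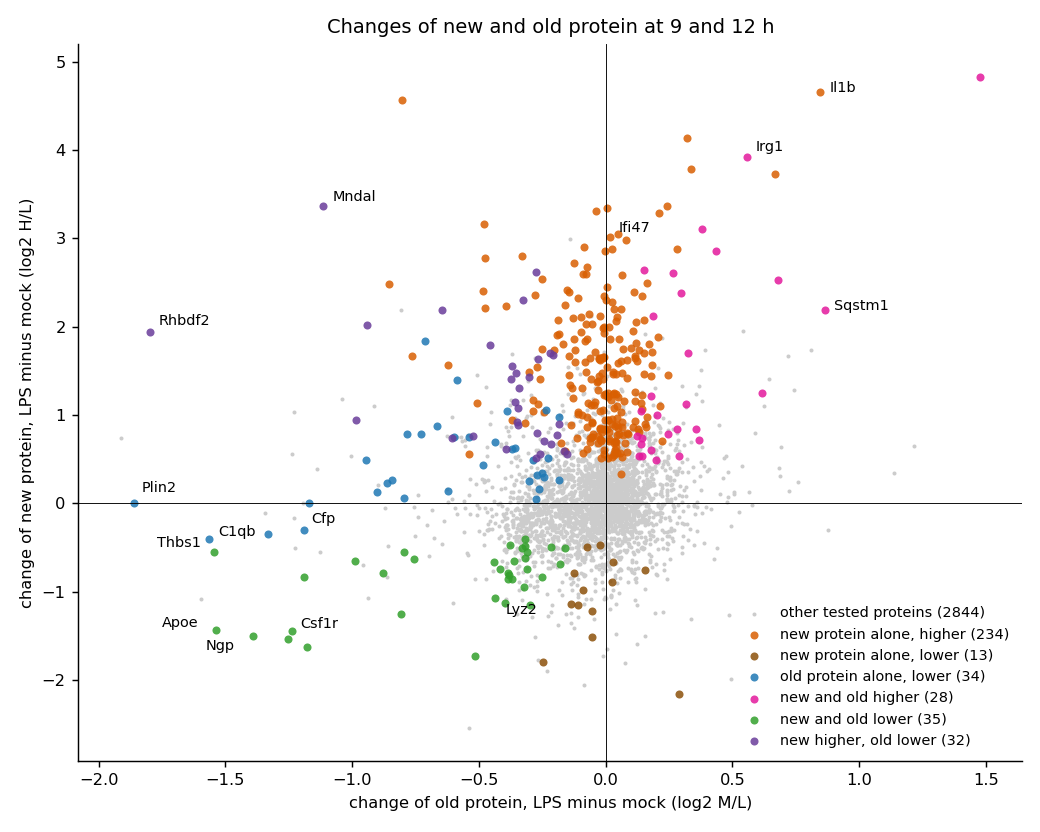
Change of new protein (log2 H/L, vertical axis) against change of old protein (log2 M/L, horizontal axis), LPS minus mock over 9 and 12 h, 1 point per protein tested in H/L, M/L and H/M. Colours mark the 6 largest classes with their numbers, grey points are all others, and the 234 proteins that gained new protein alone form a column above 0 while Plin2 and C1qb lie to the left near the horizontal line.

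Promoters of 4 genes show a sequence feature that the classes did not use. The interferon-stimulated response element (ISRE, searched as GAAA, any 2 bases and GAAA) and the NF-kB element (searched as GGGA, any 1 base and TTTCC) were looked for on both strands in 250 bases before to 50 bases after each start. The sequences are RefSeq's on build GRCm38.p6, 5′ to 3′ on the gene's strand, with capitals marking the matches. Gbp5 (chr3:142496684-142496983, + strand), a guanylate-binding protein that gained new protein alone, and B2m (chr2:122147437-122147736, + strand), the light chain of MHC class I, which gained new and lost old protein, held both elements. Ifitm3 (chr7:141010695-141010994, - strand), a membrane protein that blocks virus entry and that was higher than mock in both forms, held 2 ISRE matches. Plin2 (chr4:86670010-86670309, - strand), the coat protein of lipid droplets, which lost old protein alone, held none.
Gbp5: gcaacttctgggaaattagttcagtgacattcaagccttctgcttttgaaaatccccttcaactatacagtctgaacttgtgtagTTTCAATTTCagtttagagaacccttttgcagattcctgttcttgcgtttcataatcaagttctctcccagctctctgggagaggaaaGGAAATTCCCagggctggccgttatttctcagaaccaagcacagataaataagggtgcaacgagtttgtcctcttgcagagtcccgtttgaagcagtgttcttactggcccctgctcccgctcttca
B2m: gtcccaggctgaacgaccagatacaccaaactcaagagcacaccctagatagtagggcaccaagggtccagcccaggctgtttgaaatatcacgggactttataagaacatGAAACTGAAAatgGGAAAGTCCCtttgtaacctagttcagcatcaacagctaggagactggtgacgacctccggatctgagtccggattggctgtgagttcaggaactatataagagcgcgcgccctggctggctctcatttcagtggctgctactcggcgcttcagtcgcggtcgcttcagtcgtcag
Ifitm3: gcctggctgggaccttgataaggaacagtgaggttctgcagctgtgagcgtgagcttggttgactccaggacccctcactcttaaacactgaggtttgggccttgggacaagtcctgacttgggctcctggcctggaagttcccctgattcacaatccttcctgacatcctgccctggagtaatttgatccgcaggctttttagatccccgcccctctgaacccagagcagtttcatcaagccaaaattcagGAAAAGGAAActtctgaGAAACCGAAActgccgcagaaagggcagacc
Plin2: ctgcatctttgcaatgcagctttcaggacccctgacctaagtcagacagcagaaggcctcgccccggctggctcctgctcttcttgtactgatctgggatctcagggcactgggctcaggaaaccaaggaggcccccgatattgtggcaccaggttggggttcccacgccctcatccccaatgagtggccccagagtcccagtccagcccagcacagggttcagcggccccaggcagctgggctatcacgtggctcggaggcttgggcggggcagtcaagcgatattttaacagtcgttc
An ISRE match lay in the promoters of 27 of 177 proteins with more new protein alone (15.3%), 5 of 23 higher in both (21.7%) and 5 of 25 with more new and less old protein (20%). It lay in 0 of 28 with less old protein alone, 1 of 27 lower in both (3.70%) and 64 of 1883 that did not move (3.40%), against 115 of 2574 tested proteins with a listed promoter (4.47%) and 1079 of 27025 genes of the table (3.99%). The NF-kB string as searched, with 1 base left free, was rare, in 2 of the 177 (Gbp5 and Nfkb2), in B2m among the 25 and in 126 of 27025 genes (0.466%). Other forms of the element were not searched, so these counts do not show how common NF-kB sites are. These matches are letters in a window and were not tested as sites.

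Interferon-inducible GTPases were among the proteins with more new protein alone. Ifi47, an interferon-inducible GTPase, had H/L of 1.50, 1.6, 1.46 and 1.66 with LPS against 0.154, 0.207, 0.184 and 0.231 in mock, and 0.129 and 0.179 at 0 h. Its M/L was 0.219, 0.216, 0.194 and 0.211 against 0.229, 0.223, 0.166 and 0.217. The H/L groups did not overlap, while the M/L groups did. The H/L change was 3.01 ± 0.19 (adjusted p = 2.3e-11, higher in 4 of 4 pairs) and the M/L change 0.02 ± 0.13 (adjusted p = 0.97), and total protein was 4.39-fold higher.

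Gbp5, whose promoter is shown above, had H/L of 0.919, 1.06, 1.09 and 1.07 against 0.160, 0.0805, 0.166 and 0.182, and M/L changed by 0.02 ± 0.21. H/M, which needs neither the L signal nor the run factor, was 6.70, 8.16, 9.06 and 9.04 with LPS against 0.543, 0.668, 0.491 and 0.688, a change of 3.79 ± 0.19 (adjusted p = 4.5e-13). Irgm1, another interferon-inducible GTPase, and Ifi205a, a family member of the interferon-inducible DNA sensors, followed the same pattern, with M/L changes of 0.01 ± 0.10 and -0.08 ± 0.13. Of 12 interferon-inducible GTPases tested, 8 rose in H/L (median change 1.87, against 0.04 over all proteins, of which 10.2% rose). In M/L 1 rose, Gbp2, by 0.30 ± 0.08, which was not called without LPS 12 h replicate 2 (adjusted p = 0.0836), LPS 9 h replicate 2 (0.0833) or mock 9 h replicate 2 (0.0537). Of 34 antiviral effectors 30 rose in H/L (median 2.06), 3 rose and 3 fell in M/L (median -0.07), and 33 rose in total. Over all proteins 3.43% rose and 14% fell in M/L, and 10.4% rose in total. The share of antiviral effectors that fell in M/L (8.82%) was thus below that over all proteins.

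**Figure D2:**
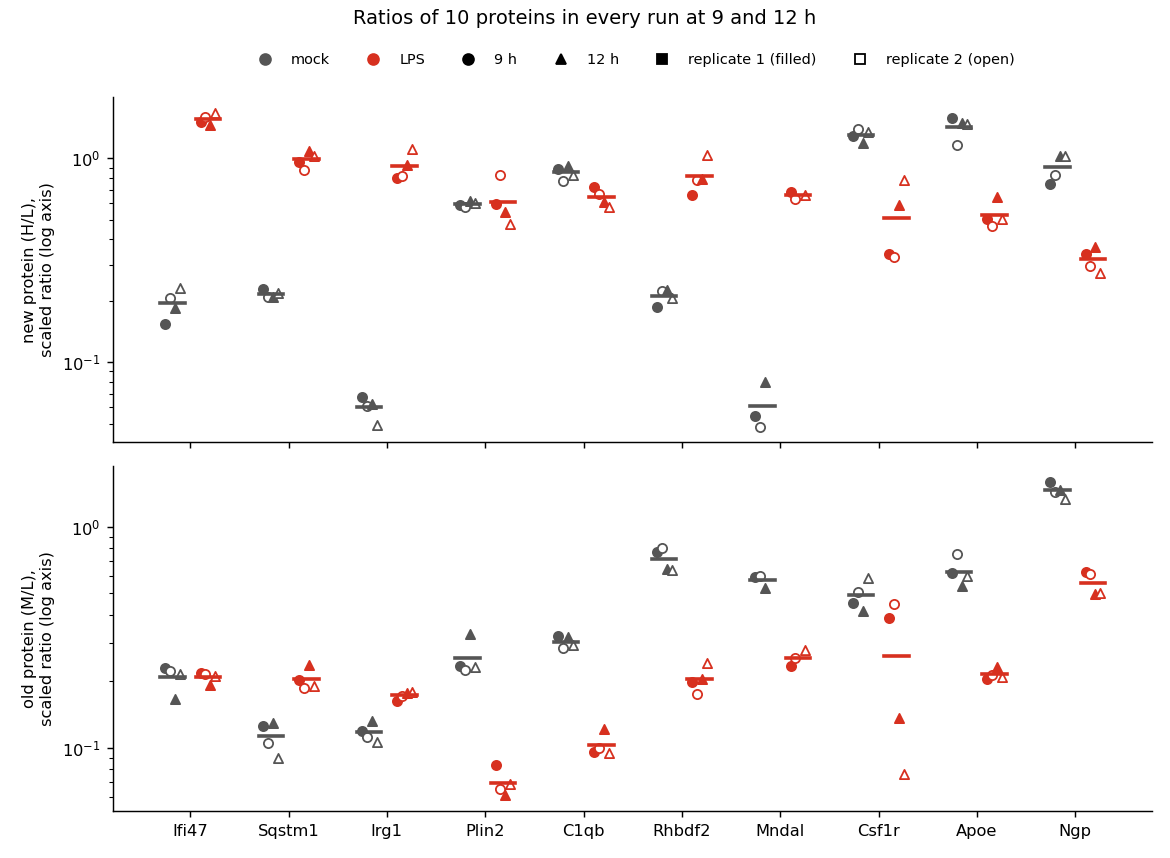
New protein (scaled H/L, upper panel) and old protein (scaled M/L, lower panel) of 10 proteins in each of the 8 runs, on log axes. Grey is mock and red LPS, circles 9 h and triangles 12 h, filled symbols replicate 1 and open symbols replicate 2, with bars for the mean of an arm; Ifi47 separates in the upper panel alone, Plin2 in the lower panel alone, and Rhbdf2 in opposite directions.

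The same class held metabolic, antigen-processing and translation proteins. Acsl1, which activates long-chain fatty acids, had H/L of 0.349, 0.365, 0.587 and 0.624 against 0.0944, 0.0560, 0.0899 and 0.0730, a change of 2.60 ± 0.18, with M/L changed by -0.09 ± 0.06 and total by 1.30 ± 0.05. Psmb10, a catalytic subunit of the immunoproteasome, had H/L of 0.407, 0.414, 0.513 and 0.523 against 0.106, 0.0949, 0.128 and 0.161, beside M/L of 0.497, 0.488, 0.493 and 0.451 against 0.521, 0.519, 0.512 and 0.509. Its new protein was 3.85-fold and its total 1.48-fold higher. Psme2, a proteasome activator subunit, rose 3.65-fold in new and 1.33-fold in total protein.

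Txnrd1, a thioredoxin reductase and NRF2 target, and Eef1a1, the factor that brings tRNA to the ribosome, were also in the class. New protein rose 2.66-fold and 2.92-fold, and total 1.23-fold and 1.17-fold. Of 71 cytosolic ribosome proteins 23 rose in H/L (median 0.57) and none fell, beside 10.2% of all proteins that rose in H/L. In the deposited normalised ratios 2 of them rose and the median was 0.02, beside 120 of 3221 proteins that rose. Of 37 constitutive proteasome subunits 2 rose in H/L and none fell. Over the 234 proteins of the class the median change was 1.41 in H/L, 0.00 in M/L and 0.50 in total, and 174 passed in total.

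Among inflammatory enzymes and receptors, Nos2, the inducible nitric oxide synthase, had H/L of 1.35, 1.40, 1.54 and 1.31 against 0.428, 0.228, 0.364 and 0.231, with an M/L change of -0.47 ± 0.31 that did not pass (adjusted p = 0.36). Cd274 (PD-L1), a ligand that restrains T cells, changed by 2.80 ± 0.26 in H/L and -0.33 ± 0.20 in M/L. Nfkb2, an NF-kB subunit precursor, changed by 1.83 ± 0.19 and -0.08 ± 0.08. Fpr2, a formyl peptide receptor, changed by 2.88 ± 0.36 and 0.28 ± 0.21 over 3 pairs, since 1 mock run had no value. For the cytokine Il1b, M/L was 0.214, 0.217, 0.260 and 0.210 with LPS against 0.101, 0.175, 0.125 and 0.109, a change of 0.85 ± 0.36 that did not pass (adjusted p = 0.11) although the groups did not overlap. Of the 329 proteins with higher H/L, 326 had an H/L at 0 h, and in 36 of them the mean of mock did not exceed it. In 237 of the 326 the mean of mock was at or below 2 times the 0 h mean, so the sizes of these changes rest on mock values near the heavy background. H/L of Nos2 at 0 h was 0.277 and 0.311.

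The 13 proteins that lost new protein alone included Tnfaip8l2, a restraint on innate signalling, and Glul, glutamine synthetase. H/L of Tnfaip8l2 was 0.113, 0.0902, 0.151 and 0.170 against 0.261, 0.260, 0.322 and 0.350, and its M/L change was -0.05 ± 0.07. Glul changed by -1.14 ± 0.20 in H/L and -0.14 ± 0.09 in M/L, with total lower by -0.57 ± 0.10 on the log2 scale. Neither protein's H/L groups overlapped.

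Among the 34 proteins with less old protein alone, the M/L change was largest for Plin2. Its M/L was 0.0841, 0.0652, 0.0612 and 0.0685 with LPS against 0.234, 0.225, 0.326 and 0.233 in mock, down from 0.838 and 0.799 at 0 h, so that 8.53% of the 0 h value was left with LPS and 31.1% in mock. H/L was 0.594, 0.832, 0.545 and 0.477 against 0.593, 0.578, 0.618 and 0.604. The M/L groups were far apart and the H/L groups overlapped. M/L changed by -1.86 ± 0.16 (adjusted p = 1.0e-07, lower in 4 of 4 pairs), H/L by 0.00 ± 0.14 and H/M by 1.78 ± 0.17. Total changed by -0.35 ± 0.10 (adjusted p = 0.019), and this call was lost without LPS 12 h replicate 2 (adjusted p = 0.0783), LPS 9 h replicate 1 (0.114), mock 12 h replicate 1 (0.0744) or mock 9 h replicate 1 (0.0508). Plin3, another lipid droplet coat protein, moved the other way, with M/L of 0.936, 0.870, 0.936 and 0.875 against 0.736, 0.691, 0.721 and 0.721 (change 0.33 ± 0.05, adjusted p = 3.3e-05). Plin3 and Kiaa1598 were the 2 proteins with more old protein alone, but their H/M calls, on which the class rests, were lost when single runs were left out (adjusted p up to 0.0965 and 0.177).

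Secreted proteins of the complement system were also in this class. C1qb, a chain of complement C1q, had M/L of 0.0960, 0.0997, 0.121 and 0.0946 against 0.320, 0.284, 0.318 and 0.291, a change of -1.56 ± 0.10 (adjusted p = 6.2e-11), beside an H/L change of -0.41 ± 0.14 (adjusted p = 0.057). Cfp (properdin), which stabilises the complement convertase, had M/L of 0.177, 0.161, 0.156 and 0.144 against 0.424, 0.335, 0.360 and 0.336, a change of -1.19 ± 0.09 (adjusted p = 1.7e-09), and H/L changed by -0.31 ± 0.12 (adjusted p = 0.13). In both, no LPS run reached the lowest mock run in M/L. Of the 0 h value, 17.7% of C1qb and 13.6% of Cfp was left with LPS, against 52.1% and 31% in mock.

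Most members of this class had H/L values above mock that did not pass. H/L lay above 0 in 30 of the 34 and below it in 4, with a median change of 0.39. The class rule favours such a split, since it asks for lower M/L with a called higher H/M. In limma 15 of the 34 had an unadjusted p under 0.05 for H/L. The missing H/L calls thus do not show that new protein was unchanged in this class. Trim25, a ubiquitin ligase of antiviral signalling, had M/L of 0.423, 0.450, 0.390 and 0.411 against 0.672, 0.801, 0.672 and 0.638 (change -0.73 ± 0.08), with H/L changed by 0.79 ± 0.27 (adjusted p = 0.062) and total by -0.02 ± 0.09. Axl, a receptor for dying cells, changed by -0.78 ± 0.11 in M/L and 0.79 ± 0.36 in H/L (adjusted p = 0.21). Ccdc50, a ubiquitin-binding adaptor, changed by -0.66 ± 0.12 and 0.88 ± 0.32 (adjusted p = 0.082), and Parp12, an antiviral ADP-ribosyltransferase, by -0.71 ± 0.11 and 1.83 ± 0.61 (adjusted p = 0.053). Lcn2, an iron-siderophore binding protein also held in granulocyte granules, changed by -0.94 ± 0.17 in M/L. With the replicate number as a block in all runs the class held 37 proteins, 28 of them among the 34, and H/L was called for C1qb (adjusted p = 0.0338), Ccdc50 (0.0424) and Parp12 (0.0324). The median M/L left from 0 h was 63.3% with LPS and 90.1% in mock.

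M/L calls leaned on the spread estimated over all 42 runs. With the 8 runs alone 5 proteins rose and 54 fell in M/L. The M/L calls of Plin2, C1qb, Cfp, Trim25, Axl, Ccdc50 and Lcn2 held there, and those of Plin3 and Parp12 did not. With no run factor only Plin2 and C1qb of these held. The class of less old protein alone also rests on H/M. It held 6 proteins in the deposited normalised ratios, 2 of them among the 34, and 8 with ratios of summed intensities, 4 of them among the 34. The H/M calls of C1qb, Trim25, Ccdc50 and Lcn2 were lost in both, that of Plin2 in the first, and those of Axl and Parp12 in the second. That of Cfp was kept.

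**Figure D3:**
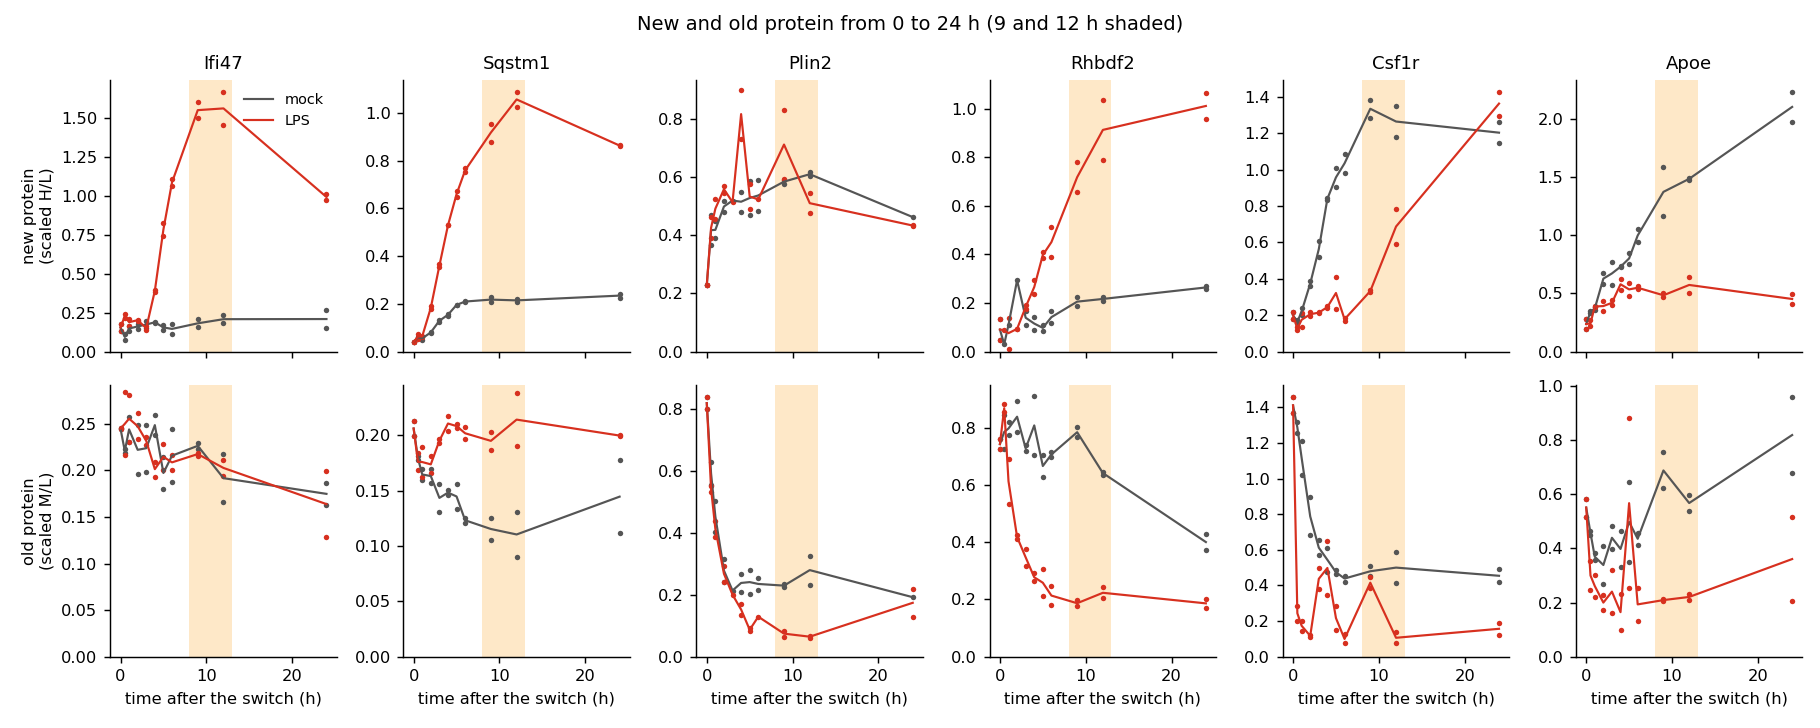
Scaled H/L (upper row) and M/L (lower row) of 6 proteins from 0 to 24 h, with points for each replicate and lines through the means of a treatment (grey mock, red LPS, 9 and 12 h shaded). Old Plin2 falls in both arms and goes on falling with LPS, old Rhbdf2 falls early with LPS alone, and old Csf1r with LPS is near mock at 9 h and below it at 6 and 12 h.

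Rhbdf2 (iRhom2), a rhomboid-like protein that carries the sheddase Adam17 to the cell surface, had less old and more new protein, with no called change in total. M/L was 0.198, 0.176, 0.205 and 0.242 with LPS against 0.767, 0.801, 0.647 and 0.636, and H/L was 0.657, 0.780, 0.790 and 1.04 against 0.187, 0.224, 0.227 and 0.207. Neither set of groups overlapped. M/L changed by -1.80 ± 0.11 (adjusted p = 6.2e-11), H/L by 1.94 ± 0.47 (adjusted p = 0.0070), H/M by 3.74 ± 0.42 (adjusted p = 1.3e-06) and total by 0.13 ± 0.11 (adjusted p = 0.50). The H/L call of Rhbdf2 was lost with ratios of summed intensities and kept when any single run was left out. In mock 96.0% of the 0 h M/L was left, against 27.6% with LPS. The old Adam17 fell as well, with M/L of 0.142, 0.273, 0.157 and 0.167 against 0.382, 0.454, 0.505 and 0.483 (change -1.34 ± 0.20, adjusted p = 3.5e-05, from 2 to 5 peptide pairs a run). Its H/L ranged from 0.395 to 1.39 in mock and overlapped, with a change of -0.11 ± 0.78, so Adam17 could not be placed.

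The other 31 proteins with more new and less old protein included nuclear, mitochondrial and surface proteins. Mndal, an interferon-inducible nuclear protein, had M/L of 0.235, 0.256 and 0.277 with LPS and 0.596, 0.601 and 0.532 in mock, and H/L of 0.684, 0.630 and 0.659 against 0.0544, 0.0483 and 0.0795, with 2 pairs complete. Its changes were -1.11 ± 0.15 and 3.36 ± 0.41. Sod2, the mitochondrial superoxide dismutase, had M/L of 0.456, 0.413, 0.439 and 0.458 against 0.539, 0.551, 0.565 and 0.603, changed by -0.36 ± 0.05 in M/L, 1.47 ± 0.23 in H/L and 0.15 ± 0.05 in total (adjusted p = 0.052). Its M/L stood above 0 h in both arms, at 113% with LPS and 145% in mock. Plaur, the urokinase receptor, changed by -0.61 ± 0.08 in M/L, 0.74 ± 0.11 in H/L and -0.09 ± 0.07 in total.

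B2m changed by -0.36 ± 0.09 in M/L and 1.15 ± 0.12 in H/L, and its M/L call was lost without LPS 12 h replicate 2 (-0.26, adjusted p = 0.0805) or LPS 9 h replicate 2 (-0.29, adjusted p = 0.0617). The LPS co-receptor Cd14 changed by -0.46 ± 0.12 in M/L and 1.80 ± 0.23 in H/L, and its M/L call was lost without mock 12 h replicate 2 (-0.37, adjusted p = 0.0625). Over the 32 proteins the median M/L left from 0 h was 71.3% with LPS and 94.1% in mock, and total passed as higher in 16 and as lower in 1. With the 8 runs alone 8 proteins fell in this class, 5 of them among the 32. Of the M/L calls named here those of Rhbdf2, Adam17, Mndal and Plaur held in that fit, and those of Sod2, B2m and Cd14 did not. With no run factor the class held 1 protein, which was among the 32, and of these M/L calls only that of Rhbdf2 was kept.

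Old and new protein were both higher with LPS than in mock in 28 proteins, all 28 of which passed in total. Their median M/L was below the 0 h value in both arms, at 91.4% of it with LPS and 79.45% in mock. Irg1, which makes itaconate, had M/L of 0.164, 0.172, 0.177 and 0.178 with LPS against 0.120, 0.113, 0.133 and 0.106 in mock and 0.103 and 0.0856 at 0 h. Its H/L was 0.798, 0.820, 0.931 and 1.11 against 0.0671, 0.0608, 0.0626 and 0.0493. Neither overlapped, with changes of 0.56 ± 0.07 (adjusted p = 8.8e-06) and 3.93 ± 0.20 (adjusted p = 7.0e-13). Its M/L with LPS stood above the value at 0 h.

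Sqstm1 (p62), an autophagy receptor that is itself degraded by autophagy, differed from Irg1 in that its old protein fell in mock and stayed with LPS. M/L was 0.200 and 0.212 at 0 h, 0.203, 0.187, 0.238 and 0.190 with LPS and 0.125, 0.105, 0.130 and 0.0903 in mock, so that 99.2% and 54.8% of the 0 h value was left. The M/L change was 0.87 ± 0.11 (adjusted p = 9.0e-06), and H/L rose by 2.19 ± 0.11. Marcksl1, an actin-linked membrane protein, changed by 0.44 ± 0.09 in M/L and 2.86 ± 0.22 in H/L. Ifitm3 changed by 2.52 ± 0.31 in H/L and 0.68 ± 0.19 in M/L, the last not called without LPS 9 h replicate 2 (0.57, adjusted p = 0.0691) or mock 9 h replicate 2 (0.54, adjusted p = 0.0880). Hmgcs1, an enzyme of sterol synthesis, rose in M/L by 0.59 ± 0.10 (adjusted p = 9.0e-05) and could not be placed, since H/L (0.80 ± 0.47) and H/M did not pass. Without LPS 12 h replicate 2 the class held 10 proteins, 9 of them among the 28, and with the 8 runs alone 3, all among the 28. The M/L calls of Irg1, Sqstm1, Marcksl1 and Hmgcs1 held in both, and that of Ifitm3 was not kept with the 8 runs alone. With no run factor none of these M/L calls was kept, and the class held 1 protein, which was among the 28.

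**Figure D4:**
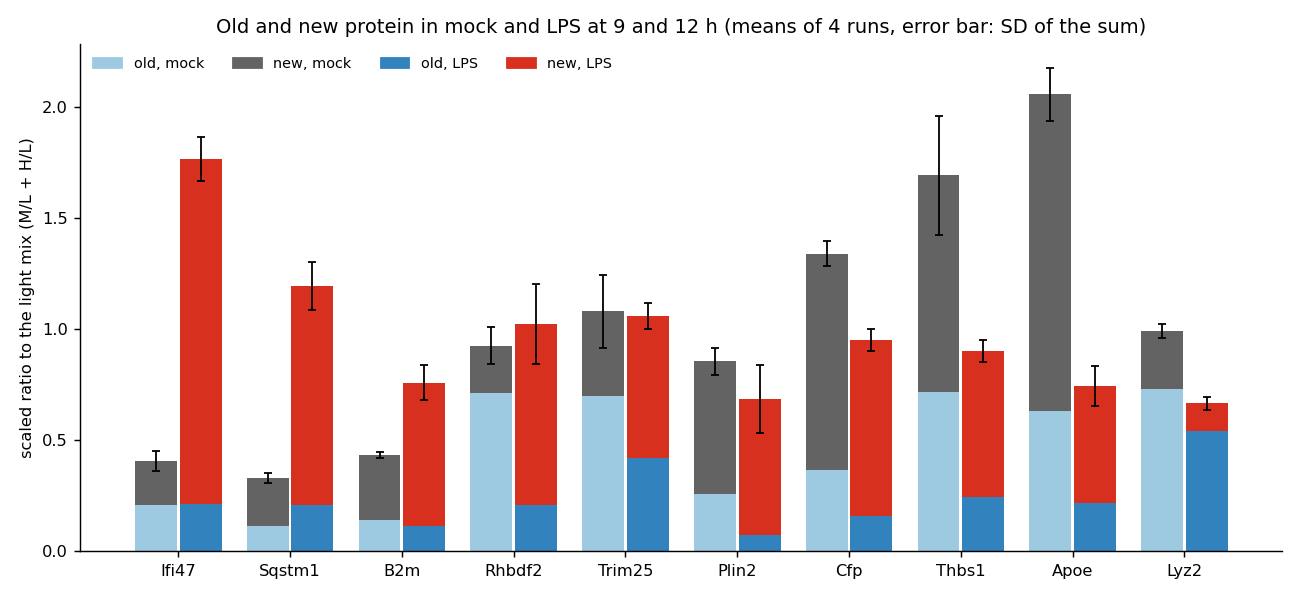
Mean scaled M/L (old, lower part) and H/L (new, upper part) of 10 proteins in mock (left bar) and LPS (right bar) over 4 runs each, with the SD of the sum as error bar. Ifi47 grows by its upper part, Rhbdf2 keeps its height while the parts trade places, and Apoe loses both parts.

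The 35 proteins lower in both forms included secreted, lysosomal and surface proteins known from macrophages and granulocytes. Their median M/L was 84.4% of the 0 h value with LPS and 107.8% in mock. In bulk lysates, fewer cells of a type and less protein per cell cannot be told apart. Apoe, a lipid carrier, had M/L of 0.205, 0.214, 0.232 and 0.210 against 0.622, 0.755, 0.538 and 0.598 and H/L of 0.502, 0.464, 0.642 and 0.501 against 1.58, 1.16, 1.49 and 1.47. The groups were apart in both. M/L changed by -1.54 ± 0.34 and H/L by -1.44 ± 0.15, and the H/M change of 0.19 ± 0.37 did not pass. Ngp and Ltf, proteins of neutrophil granules, had M/L changes of -1.39 ± 0.06 and -1.25 ± 0.07, H/L changes of -1.50 ± 0.30 and -1.53 ± 0.22, and H/M changes of -0.01 ± 0.26 and -0.45 ± 0.21. The summed total of the 9 granulocyte markers seen in all 8 runs, of 18 in the table, was 12.8 to 13.9 with LPS and 15.9 to 17.0 in mock. Each marker counts in this sum by its ratio, and M/L at 0 h was 2.72 and 2.72 for Ltf and 1.93 and 1.85 for Ngp. Of 9 tested, 1 rose and 3 fell in H/L, beside 10.2% and 1.86% of all proteins. In M/L 1 rose and 4 fell, beside 3.43% and 14% of all proteins. In total 2 rose and 3 fell, beside 10.4% and 9.22%. The share of granulocytes in these changes was not tested.

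Csf1r, the receptor of the macrophage growth factor M-CSF, was lower in both forms over the 2 times together. Its M/L was 0.386 and 0.446 with LPS and 0.453 and 0.507 in mock at 9 h, and 0.137 and 0.0761 with LPS and 0.415 and 0.586 in mock at 12 h. Its H/L was 0.338 and 0.326 against 1.28 and 1.39 at 9 h, and 0.591 and 0.784 against 1.18 and 1.35 at 12 h. New Csf1r was far below mock at both times, while old Csf1r lay just below mock at 9 h and far below it at 12 h, a difference between the times whose test is given further on. The M/L change over both times was -1.24 ± 0.23 (adjusted p = 0.00036) and the H/L change -1.45 ± 0.16 (adjusted p = 2.4e-07). At 6 h M/L had been 0.0748 and 0.125 with LPS, so the 9 h values stand above both neighbouring times. With the 8 runs alone the adjusted p of M/L was 0.0506, and with ratios of summed intensities the change was -0.38 (adjusted p = 0.887).

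Thbs1 (thrombospondin 1), a secreted matrix glycoprotein, was lower in both, with the larger change in M/L. M/L was 0.243, 0.243, 0.252 and 0.236 against 0.808, 0.584, 0.721 and 0.746 (change -1.54 ± 0.11, adjusted p = 5.3e-10), whereas H/L changed by -0.55 ± 0.14, a call lost without LPS 9 h replicate 2 (-0.50, adjusted p = 0.0520) or mock 9 h replicate 1 (-0.46, adjusted p = 0.0657). Mmp12, the macrophage elastase, changed by -1.18 ± 0.20 in M/L and -1.62 ± 0.17 in H/L. Pf4, a platelet and megakaryocyte chemokine, changed by -0.99 ± 0.18 and -0.65 ± 0.14, and its total was 0.713 to 1.19 with LPS and 1.45 to 1.86 in mock. Lpl (lipoprotein lipase) changed by -1.19 ± 0.18 and -0.84 ± 0.14, but with summed intensities its M/L changed by 0.35 (adjusted p = 0.972). Lrp1, an endocytic receptor, had the larger change in new protein, by -0.84 ± 0.11 in H/L and -0.25 ± 0.05 in M/L. With the 8 runs alone the M/L calls of Apoe, Ngp, Ltf, Thbs1 and Lpl held, and those of Mmp12, Pf4 and Lrp1 did not. With no run factor only those of Ngp and Thbs1 held, and the class of proteins lower in both forms held 0 proteins.

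Most lysosomal hydrolases had less old protein with LPS. Of 41 lysosomal hydrolases tested, 36 fell in M/L and none rose (14% of all tested proteins fell), with a median change of -0.35 against -0.02 over all proteins. All 41 lay below 0, and 39 of 41 with no run factor. In H/L 9 fell and 1, the ribonuclease Rnaset2, rose, beside 1.86% of all proteins that fell and 10.2% that rose. Lyz2 (lysozyme) had M/L of 0.564, 0.554, 0.517 and 0.522 against 0.717, 0.749, 0.720 and 0.730, a change of -0.44 ± 0.03 (adjusted p = 2.7e-10), and H/L of 0.143, 0.107, 0.122 and 0.127 against 0.235, 0.233, 0.286 and 0.296. No LPS run reached a mock run in either. Man2b1, a mannosidase, changed by -0.39 ± 0.03 in M/L and -0.86 ± 0.14 in H/L, Lipa, the lysosomal acid lipase, by -0.32 ± 0.06 and -0.95 ± 0.18, and the cathepsin Ctsl1 by -0.46 ± 0.07 in M/L with -0.23 ± 0.24 in H/L.

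In mock these M-labelled hydrolases did not fall below their start but rose above it, relative to the run factor. M/L in mock stood above the 0 h value in 40 of 41, with a median of 139% of it, and with LPS in 35 of 41, with a median of 108%. For Lyz2 this was 116% in mock and 85.7% with LPS, and for Man2b1 132% and 101%. With no run factor none of the 41 passed and with the 8 runs alone 5 fell, Lyz2 and Man2b1 among those that held in the 8 runs. Without LPS 12 h replicate 2, 35 of 39 fell.

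Mitochondrial proteins showed the same shape at a smaller size. Of 56 respiratory chain and ATP synthase proteins 26 fell in M/L and none rose (median -0.27). Of 39 mitochondrial ribosome proteins 16 fell and none rose (median -0.29), beside 14% of all proteins that fell in M/L. Ndufs4, a complex I subunit, changed by -0.42 ± 0.09 and Mrpl28, a mitochondrial ribosomal protein, by -0.48 ± 0.10. In H/L 1 of 54 (1.85%) and 1 of 35 (2.86%) fell, near the 1.86% of all proteins that fell. M/L in mock stood above 0 h for 45 of 56 and 39 of 39 proteins, with medians of 116% and 122%, and with LPS medians were 97.8% and 99.1%. These list counts were 0 and 0 with the 8 runs alone and with no run factor, and 27 of 54 and 13 of 30 without LPS 12 h replicate 2.

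**Figure D5:**
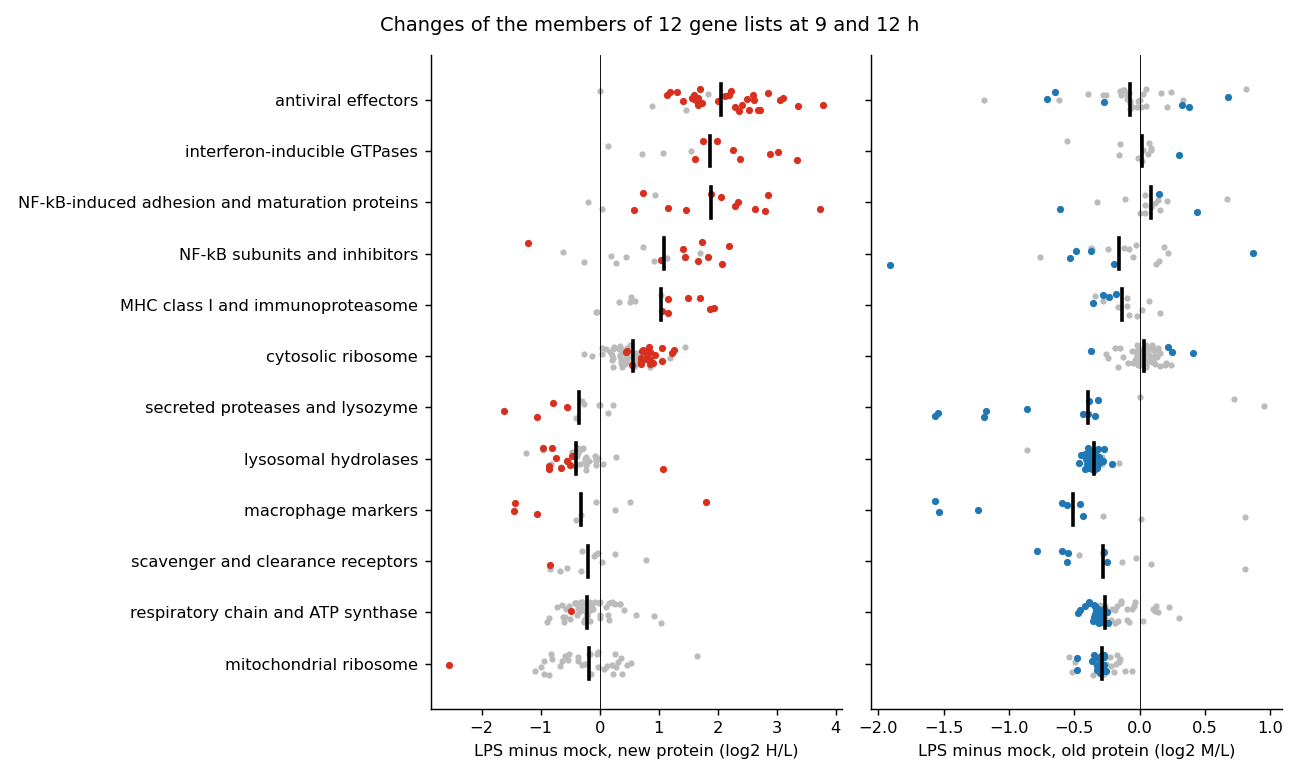
Changes of the members of 12 gene lists in new protein (left, log2 H/L) and old protein (right, log2 M/L), LPS minus mock over 9 and 12 h, 1 point per protein, coloured where called and grey where not, with a black bar at the list's median. Antiviral effectors spread to the right in new protein and lie around 0 in old protein, while lysosomal hydrolases form a tight group near -0.35 in old protein.

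Of 10 macrophage markers 7 fell in M/L and none rose (median -0.51), beside 14% of all proteins that fell in M/L. Of 9 tested in H/L 1 rose and 3 fell, beside 1.86% of all proteins that fell in H/L. Mrc1, the mannose receptor, changed by -0.56 ± 0.11 in M/L and -0.32 ± 0.25 in H/L, and Cd68, an endosomal glycoprotein, by -0.59 ± 0.11 and -0.06 ± 0.60. Cd68 M/L stood above 0 h in both arms, at 139% with LPS and 206% in mock. The summed total of 9 macrophage markers was 7.14 to 7.93 with LPS and 10.45 to 10.97 in mock, and that of 7 dendritic cell markers, 5.49 to 6.75 and 6.05 to 6.56, overlapped. Of 9 dendritic cell markers tested, 3 fell in M/L and none rose (median -0.28), beside 14% of all proteins that fell. In H/L none of the 9 was called, and in H/M 3 rose, beside 10.9% of all proteins. Cd74, the invariant chain of MHC class II, was placed with less old protein alone and had M/L of 0.190, 0.197, 0.285 and 0.121 against 0.339, 0.334, 0.342 and 0.302 with an H/L change of 0.06 ± 0.13. Its M/L change of -0.80 ± 0.23 was not called without LPS 12 h replicate 2 (-0.49, adjusted p = 0.168), mock 12 h replicate 1 (-0.75, adjusted p = 0.0543) or mock 9 h replicate 2 (-0.80, adjusted p = 0.0501). No lymphocyte or NK marker was tested. With the 8 runs alone 3 of the 10 macrophage markers fell in M/L, not Mrc1 or Cd68.

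Some nuclear and signalling proteins also had less old protein but could not be placed. The linker histones Hist1h1a and Hist1h1b changed by -1.24 ± 0.12 and -1.23 ± 0.13 in M/L. For Hist1h1b M/L was 0.794, 0.798, 0.695 and 0.653 with LPS, 1.89, 1.77, 1.64 and 1.59 in mock and 0.584 and 0.496 at 0 h, so the mock runs were highest, the 0 h runs lowest and the LPS runs between. Mki67, a chromosome protein of dividing cells, changed by -0.68 ± 0.12 in M/L and -0.07 ± 0.23 in H/L, and the kinase Tbk1, which turns on interferon genes, by -0.53 ± 0.10 and 0.27 ± 0.34. The M/L calls of both histones and Mki67 held with the 8 runs alone, and that of Tbk1 did not. Over the 356 unplaced proteins with less old protein, H/L lay below 0 in 254 and above it in 102, and total passed as lower in 210. The sorting favours this split as well, since proteins with lower M/L and a called higher H/M were placed. Their median M/L was 95.7% of the 0 h value with LPS and 116.9% in mock. The lower M/L of this group thus stood beside a mock median above its start.

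No protein's LPS change passed the test of a difference between 9 and 12 h. At 9 h 167 proteins rose and 15 fell in H/L (6.09% called, 5.59% higher and 0.502% lower) and 20 rose and 134 fell in M/L (4.97% called, 0.646% higher and 4.33% lower). At 12 h 219 rose and 33 fell in H/L (8.32% called, 7.23% higher and 1.09% lower) and 54 rose and 328 fell in M/L (12.2% called, 1.73% higher and 10.5% lower). In the test of 12 h against 9 h itself, no protein passed in limma for H/L, M/L or H/M (0 of 2793, 2897 and 2793, 0% called), with 29, 93 and 30 at an unadjusted p under 0.05. For M/L 0 to 3 passed when 1 run was left out, 3 of them without mock 9 h replicate 2. Old Csf1r had the lowest p in M/L among the named proteins (12 h minus 9 h -2.06 ± 0.45, limma adjusted p = 0.392).

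At other times, changes ran the same way for most proteins. These runs were outside the contrast behind the classes, but they entered its spread estimate and run factor. At 4 to 6 h H/L lay on the same side for 218 of 231 proteins with more new protein alone (median 0.52), against 1982 of 3126 over all proteins, and M/L for 33 of 34 with less old protein alone (median -0.17), against 2243 of 3175. For proteins lower in both, M/L lay on the same side in 35 of 35 and H/L in 32 of 35. At 24 h, whose handling the protocol text does not describe, H/L was higher for 228 of 231 (median 1.31) and M/L lower for 31 of 33 (median -0.64), and over all proteins H/L lay on the same side as at 9 and 12 h for 2127 of 2960 and M/L for 2300 of 2984.

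The classes are set beside how fast old protein was replaced in mock from 0.5 to 6 h, from runs outside the contrast that entered its spread estimate and run factor. The measure was the hourly fall of M as a share of M plus H, which falls when H is made as well as when M is lost. The median fall per hour was 0.37% over all tested proteins and 0.46% for those with more new protein alone. It was 1.03% for less old protein alone, 1.07% for more new and less old protein, 1.10% for lower in both and 0.91% for higher in both, but 0.18% for the unplaced proteins with less old protein. The median percentile of abundance at 0 h, from iBAQ in AspN digests, was 60.2 over all proteins, 75.2 for more new protein alone, 64.6 for less old protein alone and 83.8 for lower in both. These are descriptions without a test.

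Some proteins were seen in 1 arm alone and so had no fold change. H/L was present in at least 3 of 4 LPS runs and no mock run for 34 proteins, and the reverse held for 12. Met, the receptor of hepatocyte growth factor, had H/L of 1.34 to 1.6 in 4 LPS runs from 19 peptide pairs and none in mock, and the chemokine Cxcl2 had 1.04 to 1.83 in 3. Mmp8, the neutrophil collagenase, had H/L of 1.12 to 1.40 in 3 mock runs and none with LPS. For M/L the counts were 29 and 12, with many of the same proteins. Cxcl2 and Mmp8 were among them, so the other arm lacked both their old and their new protein values. Tbc1d5, a regulator of endosomal Rab7, had M/L of 1.02, 0.898, 1.04 and 1.02 with LPS against 0.701, 0.578, 0.501 and 0.380, a change of 0.91 ± 0.16. It had H/L in LPS alone, at 0.142 to 0.250 in 3 runs, within the range of its 0 h values of 0.462 and 0.122.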

How the data were processed

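Pulsed SILAC proteomes of mouse dendritic cells were read from the table of trypsin digests, in which each run holds the L, M and H channels of 1 sample pair. Per the file headers, the authors deposited protein-group ratios (M/L, H/L and H/M, unnormalised and normalised), the count of peptide pairs behind each ratio, and channel intensity values, in columns of the MaxQuant style. No source used here gives the software version or the search settings. The iBAQ intensity values of AspN and LysN digests at 0 h were also deposited by the authors. Of 6266 protein groups, 5899 were kept after those marked reverse, contaminant or identified only by site were dropped. Of their names, 5321 were current RefSeq symbols and 421 older synonyms.

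A run factor scaled unnormalised M/L and H/L. It was the median, over 2628 proteins with M/L in all 42 runs, of their summed ratios. H/M was used as deposited. The log2 values were fitted with limma 3.58.1 in R 4.3.3 over 21 groups of 42 runs, which share 1 estimate of the spread per protein. The contrast was the mean of LPS at 9 and 12 h minus the mean of mock, for proteins with at least 3 of 4 values per arm, with Benjamini-Hochberg adjustment over all tested proteins and a threshold of 0.05. The script was tested on simulated data, where it recovered 34% of 2-fold changes in H/L and 95% of those in M/L. Tables and plots used matplotlib 3.10.9, pandas 2.3.3 and numpy 2.4.6 under Python 3.11.15.

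Same-numbered replicates deviated together in every pair of groups (correlations of 0.19 to 0.46 over proteins, measured in these data), and a fit with the replicate number as a block was an alternative. Members and lists were chosen with earlier results of these data known. The text names, among proteins with 1 gene name and LPS on 1 side in every measured pair, those with the largest called changes per measure, class and list, those with values in 1 arm alone, and Irg1, Ifi47 and Csf1r. From these a subset was taken for the text, after their values were seen. Alternatives were other scalings, the 8 runs alone, filters, ratios of summed intensities, subtraction of H/L at 0 h, another prior and left-out runs. Protein sequences were not used here.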

Additional observations from a re-analysis of the deposited data

How the results depend on the processing

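The depth of these values is the number of peptide pairs, and the small H channel limits H/L. Against 389 called changes in H/L, 578 in M/L, 384 in H/M, 633 in total protein and 380 placed proteins, leaving out 1 run gave 295 to 341, 400 to 563, 299 to 340, 513 to 666 and 285 to 340. Ratios of summed intensities gave 208, 229, 205, 317 and 179. Without replicate 2 at both times there were 139, 207, 158, 274 and 136, and without replicate 1 221 in H/L, 206 in H/M and 197 placed. With no run factor there were 9 in M/L, 121 in total and 242 placed, 234 of them with more new protein alone. With the 8 runs alone there were 59 in M/L and 324 in total. The deposited normalised ratios gave 237 in H/M and 416 in total, and subtraction of H/L at 0 h gave 145 in H/L. With the replicate number as a block in all runs the counts were 440 in H/L, 751 in M/L, 424 in H/M, 809 in total and 433 placed, and with the block in the 8 runs alone 319 in M/L. The block in all runs ended none of the 187 called changes of proteins named in the text.

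Called in the main setting, with centring, in the normalised ratios and with the block were 168 of the H/L changes (120 higher) and 407 of the M/L changes (93 higher), and adding the 8 runs alone and summed intensities left 97 and 34. For 12 h against 9 h, M/L gave 0 to 3 calls and H/M 0 to 1 when 1 run was left out. For M/L, leaving out LPS 12 h replicate 1 or mock 12 h replicate 1 gave 2 each, LPS 9 h replicate 1 or 2 gave 1 each and mock 9 h replicate 2 gave 3. M/L gave 2 calls without replicate 1, 1 without replicate 2 and 1 with summed intensities. Of the 187 named changes 75 kept direction and call in every setting. The sign turned for Plin3 total in the normalised ratios (-0.21) and, with summed intensities, for Parp12 total (-0.093), Hmha1 M/L (-0.016), Lpl M/L (0.35) and Lpl total (0.082). The cause was not tested.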
